A study of Mus musculus with 7 samples.

Results

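The guanylate-binding protein (GBP) family was examined in mouse hearts with and without transferred human CD4+ T cells. Its 9 members, Gbp2, Gbp3, Gbp4, Gbp5, Gbp6, Gbp7, Gbp8, Gbp9 and Gbp10, were the rows of the count table carrying those gene symbols, 9 of 20343 rows. All 9 had enough counts to be tested, among 7667 tested genes. RNA came from the apical myocardium of NSG-DR1 mice (strain NSG-DRB1*0101), which lack their own mature T, B and NK cells and carry a human HLA-DR transgene. The control group was 4 untreated mice, and the transferred group was 3 mice given human CD4+ T cells 6 weeks earlier. Both groups share the strain, and the labels give no age, sex, cell dose or cell donor. Each heart has its own identifier in the labels, taken here as separate animals, so errors describe the spread between animals.

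GBPs are large GTPases of the dynamin superfamily. Their genes are switched on by interferons, in part through interferon regulatory factors, and the proteins assemble on membranes around intracellular pathogens and help to trigger inflammasomes. In the mouse they are encoded by a cluster on chromosome 3 and another on chromosome 5. Bulk tissue cannot tell more expressing cells from more RNA per cell.

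The clusters lie in RefSeq's GRCm38.p6 annotation, the build in the submitters' notes. Chromosome 3 holds 4 of the members on the plus strand, Gbp5 (142496934 to 142522344), Gbp7 (142530336 to 142550151), Gbp3 (142560016 to 142573213) and Gbp2 (142620663 to 142638008). Gbp2b, which is not among the members, lies between Gbp3 and Gbp2. Chromosome 5 holds 5 members on the minus strand, Gbp8 (105012513 to 105053609), Gbp9 (105076464 to 105110357), Gbp4 (105115767 to 105139586), Gbp10 (105215699 to 105239533) and Gbp6 (105270702 to 105295871). The transcribed pseudogene Gbp11 (105323026 to 105346476) follows them.

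Promoter windows on chromosome 3 were searched for the letters of the interferon-stimulated response element, ISRE, at which interferon-activated factors bind. Only the stretches that hold these letters are shown. RefSeq windows of 250 bases before and 50 after each transcript start matched Gbp2, Gbp3, Gbp5, Gbp7 and Gbp2b, with 2 windows for Gbp3. Gbp4, Gbp6, Gbp8, Gbp9 and Gbp10 were not analysed here for promoter sequence. The motif searched was GAAANNGAAA on both strands. It was found before the start in 5 of the 6 windows, all on the strand opposite to the gene, and in 2.98% of all 32851 windows. The second window of Gbp3 did not hold these letters. Capitals mark the matches, read 5′ to 3′ on the plus strand of GRCm38.p6, and each stretch lies before the gene's first annotated base.
Gbp5, chr3:142496744-142496803: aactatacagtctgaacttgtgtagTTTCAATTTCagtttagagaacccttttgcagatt
Gbp7, chr3:142530258-142530317: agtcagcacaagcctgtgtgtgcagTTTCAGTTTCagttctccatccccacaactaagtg
Gbp3, chr3:142559974-142560015: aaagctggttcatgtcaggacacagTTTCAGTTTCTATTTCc
Gbp2b, chr3:142594685-142594744: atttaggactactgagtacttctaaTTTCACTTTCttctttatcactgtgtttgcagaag
Gbp2, chr3:142620579-142620638: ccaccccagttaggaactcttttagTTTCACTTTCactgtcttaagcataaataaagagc

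The match began 53 bases before the start in Gbp7, 59 in Gbp2, 137 in Gbp2b and 165 in Gbp5. In Gbp3 there were 2 overlapping matches, beginning 45 and 39 bases before the start. Distances are from the transcript start of each window. For Gbp3 (142560044) and Gbp2b (142594847) that start lies after the gene's first annotated base. The second motif searched, TTCNNNGAA, is the gamma-activated site of interferon gamma target genes and reads the same on both strands. It was present in Gbp5 and in Gbp7, at 2 places each, and not in the windows of Gbp2, Gbp2b or Gbp3, against 8.30% of all windows. A match is a description of letters and not evidence of binding.

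Counts in each heart were compared with the edgeR quasi-likelihood test across all tested genes, with Benjamini-Hochberg adjustment at 0.05. Of the 9 members, 0 passed, against 0.235% of all tested genes. All 9 had a positive log2 fold change, from 0.52 to 1.45 with a median of 0.61, while the median over all tested genes was 0.00. At an unadjusted p under 0.05, 5 members were higher in transferred hearts, against 7.17% of all tested genes. These were Gbp2, Gbp3, Gbp4, Gbp7 and Gbp9. With DESeq2, 2 members were called higher, Gbp4 (adjusted p = 0.0124) and Gbp7 (adjusted p = 0.0262), against 2.48% of all tested genes, and limma-voom called 0 with 5 at an unadjusted p under 0.05, against 0 and 907 of all 7667 tested genes in either direction. Gbp4's adjusted p lay between 0.0124 and 0.382 over 17 alternative settings. Values below are CPM, counts relative to the column total after scaling by the trimmed mean of M values (TMM).

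On chromosome 3, Gbp3 had the largest log2 fold change of the members. It stood at 16.0, 19.3, 19.8 and 16.8 CPM in control hearts 1 to 4, and at 94.4, 35.8 and 18.1 CPM in transferred hearts 1 to 3. Transferred heart 1 was far above the rest, heart 2 was above every control heart, and heart 3 lay inside the control range. The log2 fold change of Gbp3 was 1.45 with a standard error of 0.50 (edgeR adjusted p = 0.311), and without transferred heart 1 it was 0.58 (edgeR adjusted p = 0.305).

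Gbp7, reported to help assemble the phagocyte oxidase, stood at 37.9, 44.2, 42.8 and 37.1 CPM in control hearts. In transferred hearts it stood at 99.3, 69.6 and 41.3 CPM, so that only heart 3 overlapped the controls. Its log2 fold change was 0.79 with a standard error of 0.25 (edgeR adjusted p = 0.255), and 0.45 without transferred heart 1. Gbp2, a lipid-anchored member that coats parasite vacuoles and cytosolic bacteria, stood at 51.4, 47.6, 43.1 and 56.2 CPM in control hearts and at 109, 80.0 and 48.1 CPM in transferred hearts. Again hearts 1 and 2 were above every control heart and heart 3 was among them, with a log2 fold change of 0.68 ± 0.24 (SE; edgeR adjusted p = 0.303).

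Gbp5, which is also lipid-anchored and promotes inflammasome activation, stood at 17.9, 18.8, 15.9 and 22.8 CPM in control hearts. In transferred hearts it stood at 47.3, 29.6 and 14.7 CPM, and the last of these was below every control heart. The log2 fold change of Gbp5 was 0.70 ± 0.34 (SE; edgeR adjusted p = 0.457). Summed over the 4 chromosome 3 members, control hearts lay between 122 and 133 CPM and transferred hearts at 350, 215 and 122 CPM, a mean of 127 ± 5.34 (SD, n = 4) against 229 ± 115 (SD, n = 3). The control hearts were thus close together and the transferred hearts widely spread, from 0.96 to 2.76 times the control mean.

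**Figure D1:**
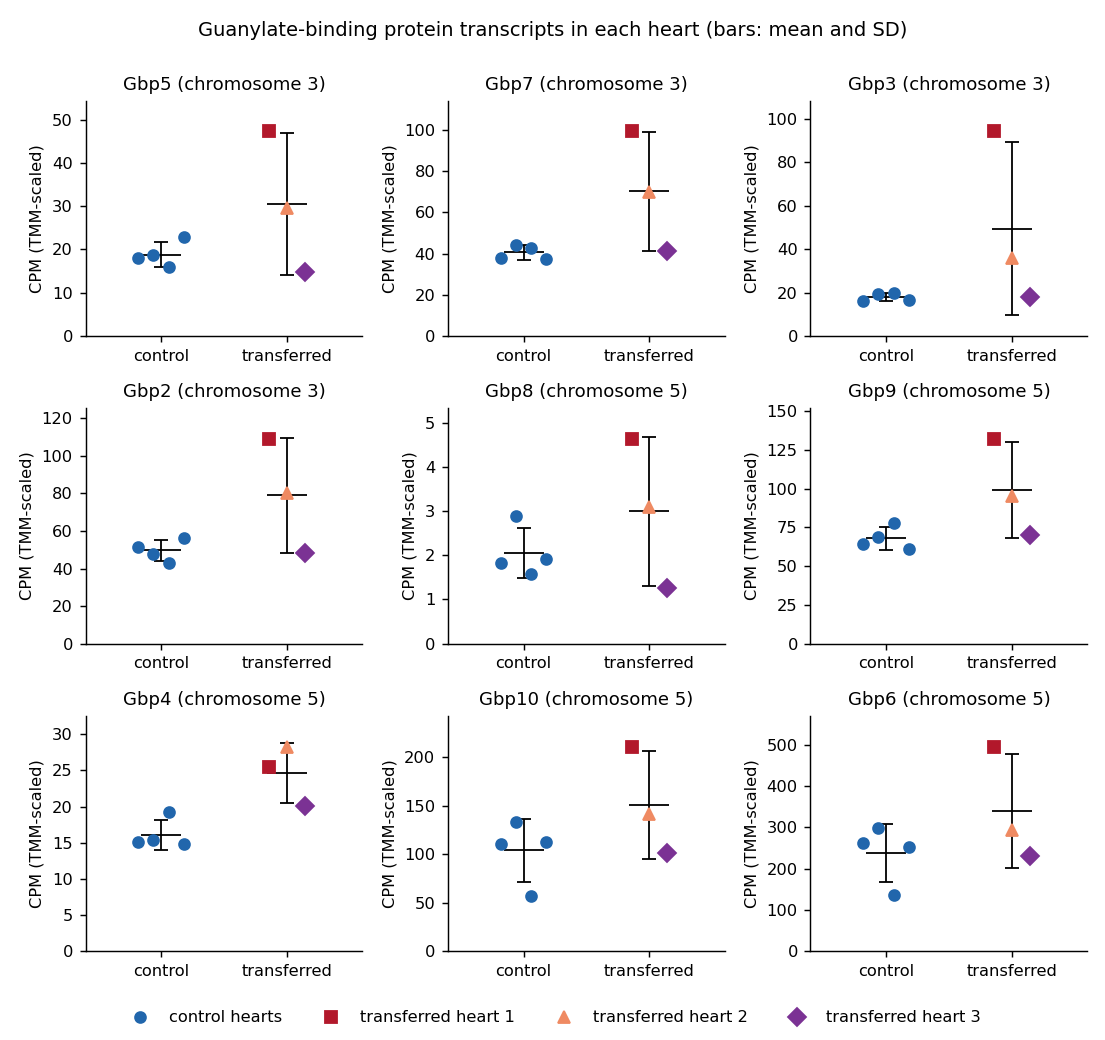
TMM-scaled CPM of each of the 9 members in each heart, with the mean and SD of the 4 control and 3 transferred hearts as black bars. Transferred heart 1 was the highest heart for 8 members, and transferred heart 3 lay inside the control range for 6, below it for Gbp5 and Gbp8 and above it for Gbp4.

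On chromosome 5, Gbp4 was the member whose groups did not overlap, as happened with the transferred hearts higher in 6.00% of all tested genes. Gbp4 has been described as a brake on IRF7, a factor that drives type I interferon genes. It stood at 15.1, 15.4, 19.3 and 14.8 CPM in control hearts and at 25.5, 28.3 and 20.1 CPM in transferred hearts. Transferred heart 3 was just above control heart 3, and hearts 1 and 2 were further above it. Its log2 fold change was 0.61 ± 0.15 (SE; edgeR adjusted p = 0.127), the smallest standard error of the 9 members, and it was 0.58 without transferred heart 1.

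Gbp6 and Gbp10, both reported to help restrict intracellular bacteria, had the highest CPM of the family. Gbp6 stood at 263, 298, 136 and 253 CPM in control hearts and at 496, 295 and 230 CPM in transferred hearts. Gbp10 stood at 111, 133, 57.3 and 113 CPM in control hearts and at 211, 141 and 101 CPM in transferred hearts. For both, transferred heart 1 was highest and control heart 3 was the lowest of all 7 hearts. The log2 fold change was 0.52 ± 0.33 (SE) for Gbp6 (edgeR adjusted p = 0.590) and 0.55 ± 0.33 (SE) for Gbp10 (edgeR adjusted p = 0.565). Leaving out control heart 3 gave 0.33 and 0.34, and leaving out transferred heart 1 gave 0.15 and 0.23.

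Gbp9 stood at 64.0, 69.0, 77.8 and 60.9 CPM in control hearts and at 132, 95.1 and 70.3 CPM in transferred hearts, with a log2 fold change of 0.54 ± 0.19 (SE; edgeR adjusted p = 0.288). Its value in transferred heart 3 lay inside the control range. Gbp8 was the least abundant member, with 25.5 to 91.5 counts in a heart. It stood at 1.82, 2.88, 1.57 and 1.91 CPM in control hearts and at 4.63, 3.08 and 1.26 CPM in transferred hearts. Transferred hearts 1 and 2 were thus above every control heart, and heart 3 was below every control heart. The log2 fold change of Gbp8 was 0.55 ± 0.40 (SE; edgeR adjusted p = 0.635), and 0.10 without transferred heart 1. Summed over the 5 chromosome 5 members, control hearts averaged 427 ± 95.7 CPM (SD, n = 4) and transferred hearts 618 ± 228 CPM (SD, n = 3).

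The transferred hearts differed among themselves. In transferred heart 1, members stood at 1.58 to 5.25 times their control mean with a median of 2.21, and all 9 were above every control heart. In transferred heart 2, they stood at 1.24 to 1.99 times with a median of 1.57, and 8 were above every control heart, the exception being Gbp6. In transferred heart 3, they stood at 0.62 to 1.25 times with a median of 0.98, and only Gbp4 was above every control heart. Over all tested genes the median ratio was 0.99 in each transferred heart, and 24.4%, 26.2% and 25.3% of genes were above every control heart in hearts 1, 2 and 3. Without transferred heart 3, 6 members passed the edgeR threshold, Gbp2, Gbp3, Gbp4, Gbp5, Gbp7 and Gbp9, with adjusted p from 0.0141 to 0.0438, and 140 of all 7787 tested genes passed. Leaving out transferred heart 1 instead left 0 members past the edgeR threshold, with 3 at an unadjusted p under 0.05 and log2 fold changes between 0.10 and 0.58. In that fit 27 of all 7805 tested genes passed and 1140 had an unadjusted p under 0.05, in either direction.

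**Figure D2:**
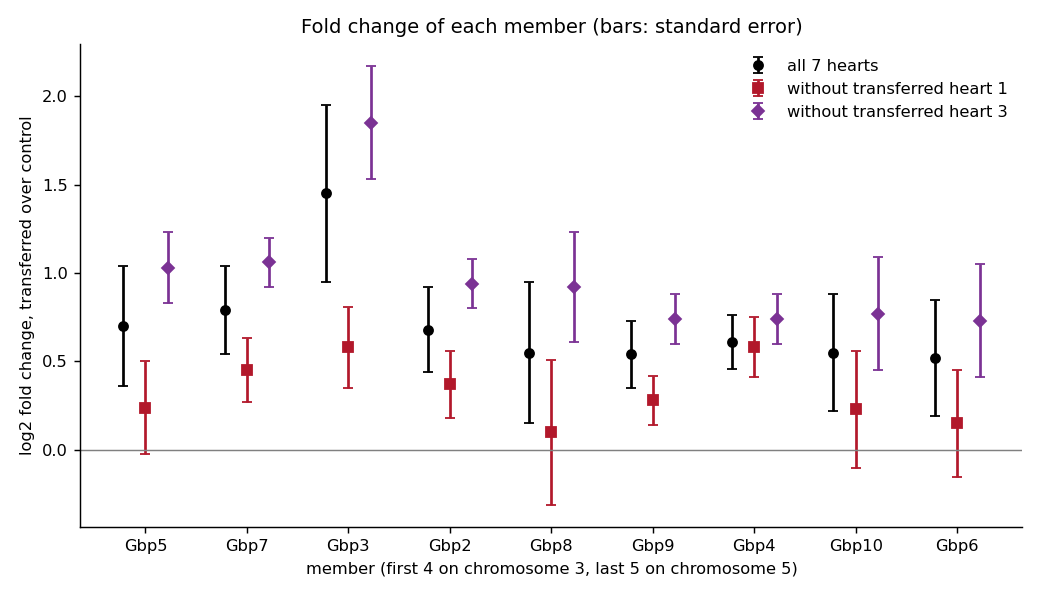
Log2 fold change of each member, transferred over control, with its standard error from edgeR, for all 7 hearts and without transferred heart 1 or 3. All values are above 0. They fall to between 0.10 and 0.58 without transferred heart 1 and reach 0.73 to 1.85 without transferred heart 3.

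The labels give no batch, but the heart identifiers take 2 forms: those of control heart 1 and of transferred heart 1 begin with letters, and those of the other 5 hearts begin with numbers. Among those 5, the log2 fold change was 0.56 for Gbp4 (edgeR adjusted p = 0.262), 0.54 for Gbp3, 0.43 for Gbp7, 0.40 for Gbp2 and 0.06 for Gbp8. Between the 2 prefixed hearts the log2 ratio was 0.75 for Gbp4, 2.56 for Gbp3, 1.39 for Gbp7, 1.09 for Gbp2 and 1.35 for Gbp8, with no replicate. With the form as a covariate, 5 members had an unadjusted p under 0.05 and 0 passed with edgeR, against 973 and 0 of all 7667 tested genes. All 9 members kept a positive sign in each of these comparisons, with a smaller size among the hearts without the prefix.

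Ratios between members were not the same in every heart. The ratio of Gbp3 to Gbp7 CPM was 0.42 to 0.46 in control hearts, 0.51 and 0.44 in transferred hearts 2 and 3, and 0.95 in transferred heart 1. Gbp3 was thus higher relative to Gbp7 in that heart than in any other. The ratio of Gbp6 to Gbp4 was 17.39, 19.35 and 17.17 in control hearts 1, 2 and 4 and 7.08 in control heart 3. It was 19.43 in transferred heart 1 and lower, at 10.44 and 11.46, in transferred hearts 2 and 3. The ratio of Gbp10 to Gbp4 was also lowest in control heart 3, at 2.97, against 4.99 to 8.66 in the other hearts. Gbp3, Gbp4 and Gbp9 were higher in control heart 3 than in any other control heart while Gbp6 and Gbp10 were lower. Gbp2, Gbp5 and Gbp8 were also lowest among the control hearts there, as were the sums of both clusters, at 122 CPM for chromosome 3 and 292 CPM for chromosome 5.

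Gbp6 and Gbp10 share much of their sequence, so their separate values are uncertain. In the GENCODE M21 transcripts, 86.0% of the 75-base windows of Gbp6 and 75.5% of those of Gbp10 also occurred in the transcript of another gene. The largest overlap of both was with Gm43302, a GENCODE gene model that has no row in the table used here, which held 86.0% of Gbp6 windows and 73.8% of Gbp10 windows. Windows were matched by sequence alone, and whether Gm43302 covers the same genomic bases as these genes was not checked. In addition, 51.7% of Gbp6 windows were found in Gbp10 and 62.2% of Gbp10 windows in Gbp6. Each had 6 partner genes in all, and the next was Gbp11 for Gbp6 (4.39%) and Gbp8 for Gbp10 (3.01%). The deposited values of each had a fractional part in 6 of 7 hearts. Their ratio stayed between 2.09 and 2.38 in all 7 hearts, and the part of shared reads in this was not tested. As a pair they summed to 373, 431, 194 and 366 CPM in control hearts and to 706, 436 and 332 CPM in transferred hearts. The share of windows found in other genes was 11.4% for Gbp7, 7.97% for Gbp8, 5.35% for Gbp4, 4.32% for Gbp9, 2.68% for Gbp3, 0.983% for Gbp2 and 0.0671% for Gbp5. For Gbp7, 10.2% of windows were found in the GENCODE gene Gm43802 and 1.26% in Gbp3. Windows came from 1 transcript per gene, of 2604 bases for Gbp6, whose combined exons in the deposited table have 4877 bases. Exon sequence outside that transcript was not examined. Gbp4 also had fractional values in 5 of 7 hearts.

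**Figure D3:**
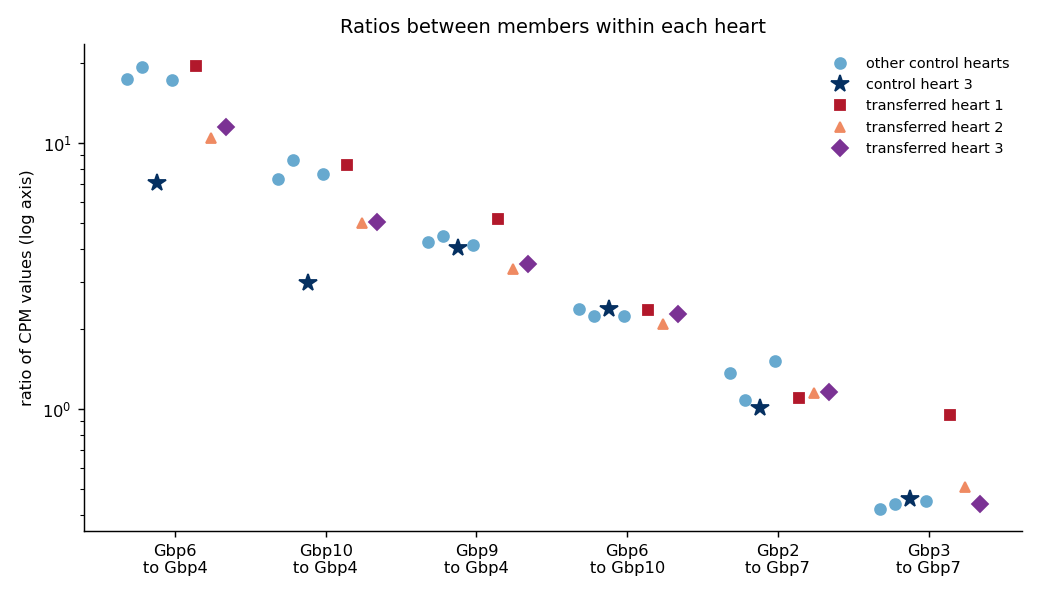
Ratio of CPM values between pairs of members within each heart, on a log axis. Control heart 3 has the lowest Gbp6 to Gbp4 ratio, 7.08, and transferred heart 1 has the highest Gbp3 to Gbp7 ratio, 0.95, while Gbp6 to Gbp10 stays between 2.09 and 2.38.

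Levels of different members were compared per kilobase of combined exons in the deposited table. In control hearts Gbp6 averaged 48.7 ± 14.4, Gbp10 29.3 ± 9.20, Gbp2 20.2 ± 2.28 and Gbp9 12.1 ± 1.31 CPM per kilobase (SD, n = 4). Gbp7, Gbp5 and Gbp3 followed at 7.20 ± 0.629, 6.24 ± 0.961 and 5.65 ± 0.585, then Gbp4 at 3.08 ± 0.403 and Gbp8 at 0.466 ± 0.131 CPM per kilobase (SD, n = 4). The ranges of Gbp6 and Gbp10 overlapped, as did those of Gbp10 and Gbp2, of Gbp7 and Gbp5 and of Gbp5 and Gbp3. Within single hearts Gbp6 was above Gbp10 in all 4 control hearts, while each of the other 3 pairs kept its order in 3 of 4. In transferred hearts 1 to 3, Gbp3 stood at 29.7, 11.3 and 5.68 and Gbp7 at 17.7, 12.4 and 7.35 CPM per kilobase. Gbp3 was thus above Gbp7 in transferred heart 1 and below it in hearts 2 and 3.

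**Figure D4:**
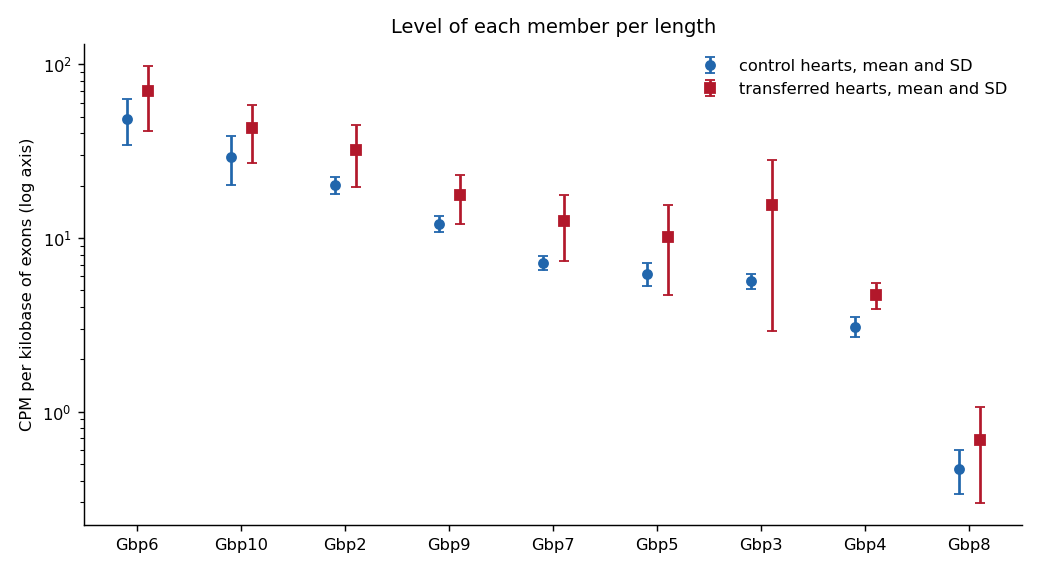
Mean and SD of CPM per kilobase of exons for each member in 4 control and 3 transferred hearts, on a log axis, ordered by the control mean. Gbp6 is highest at 48.7 and Gbp8 lowest at 0.466 in control hearts, and Gbp3 has the widest spread in transferred hearts relative to its mean, 12.6 around 15.5.

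The relatives outside the member list were Gbp2b, also known as Gbp1, and Gbp11. Gbp2b stood between 0.904 and 1.19 CPM in control hearts and at 2.56, 1.74 and 1.11 CPM in transferred hearts, with a log2 fold change of 0.79 ± 0.34 (SE; edgeR adjusted p = 0.379). Gbp11 stood between 3.88 and 7.89 CPM in control hearts and at 11.2, 6.04 and 6.09 CPM in transferred hearts, with a log2 fold change of 0.41 ± 0.29 (SE; edgeR adjusted p = 0.620). Gvin1, a giant interferon-inducible GTPase, stood between 57.9 and 63.2 CPM in control hearts and at 161, 99.4 and 66.9 CPM in transferred hearts (log2 fold change 0.85 ± 0.25 (SE), edgeR adjusted p = 0.226). Of the 15 genes on the list of other interferon-inducible large GTPases, 4 had rows in the table, these 3 were tested and 0 passed with edgeR, 2 having an unadjusted p under 0.05 and 1, Gvin1, being called by DESeq2. The listed GTPases without a row in the table were not analysed here.

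Upstream of the family, 11 of 27 genes on the interferon gamma signalling list were tested. Of these, 0 passed the edgeR threshold, and 4 were higher and 0 lower at an unadjusted p under 0.05, with a median log2 fold change of 0.34, and DESeq2 called 3. Irf7 stood at 22.6, 24.1, 25.9 and 24.3 CPM in control hearts and at 931, 119 and 27.3 CPM in transferred hearts. Transferred heart 1 was thus at 38.45 times the control mean, heart 2 at 4.91 times and heart 3 at 1.13 times, just above the highest control heart. The log2 fold change of Irf7 was 3.89 ± 1.11 (SE; edgeR adjusted p = 0.253). Jak1, the receptor-bound kinase, had a log2 fold change of -0.16 ± 0.10 (SE; edgeR adjusted p = 0.573). Ptpn6 and Irf5 had the smallest p-values of this list, at log2 fold changes of 0.67 (edgeR adjusted p = 0.108) and 0.61 (edgeR adjusted p = 0.178).

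Of 38 other interferon-inducible genes listed, 20 were tested, 1 passed the edgeR threshold and 15 were higher at an unadjusted p under 0.05, with a median log2 fold change of 1.13, and DESeq2 called 7. The gene that passed was Oas2, a sensor of double-stranded RNA. Oas2 was at 9.29 to 13.9 CPM in control hearts and rose to 37.8, 25 and 24.7 CPM in transferred hearts 1 to 3, so that all 3 were above the controls (edgeR adjusted p = 0.0384). No gene of the 4 pathway lists passed when any 1 control heart or transferred heart 2 was left out. Oas3 (edgeR adjusted p = 0.0546) and Ifi204 (edgeR adjusted p = 0.0995) came next, at log2 fold changes of 3.93 and 0.78. In control hearts Oas3 lay between 0.129 and 0.379 CPM, close to the 0.119 to 0.183 CPM that 3 counts are worth. Cxcl9, a chemokine induced chiefly by interferon gamma, stood between 17.3 and 22.5 CPM in control hearts. In transferred hearts it stood at 26.5, 19.8 and 7.91 CPM, a log2 fold change of -0.17 ± 0.34 (SE; edgeR adjusted p = 0.882). Cxcl10, a chemokine of the same list, was at 1.56 ± 0.62 (SE; edgeR adjusted p = 0.345). Both are named here after their values were seen. Of the 20 tested genes of this list, 17 had a positive log2 fold change, against 49.7% of all tested genes. The summed level of this list was 3.14, 1.58 and 1.13 times the control mean in transferred hearts 1 to 3, where the chromosome 3 members were at 2.76, 1.69 and 0.96 times.

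Of 18 inflammasome and pyroptosis genes, the pathway in which GBPs act on bacterial membranes, 6 were tested and 0 passed with edgeR, with 2 at an unadjusted p under 0.05, 2 called by DESeq2 and a median log2 fold change of 0.19. Pycard, the inflammasome adaptor, had a log2 fold change of 0.59 ± 0.16 (SE; edgeR adjusted p = 0.182) and Il1b of 1.86 ± 0.56 (SE; edgeR adjusted p = 0.221). Both were highest in transferred heart 2, at 29.8 and 11.1 CPM, and not in heart 1, where the chromosome 3 members peaked. Gsdme, a pore-forming gasdermin, had a log2 fold change of 0.36 ± 0.27 (SE; edgeR adjusted p = 0.644).

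Markers of other cell types are given beside the members. The 11 macrophage and monocyte markers with rows in the table, all tested, had positive log2 fold changes from 0.76 to 1.57, and 2 passed, C1qb and Mrc1 (edgeR adjusted p = 0.0384 for both), while DESeq2 called all 11. Neither passed edgeR when any 1 control heart or transferred heart 2 was left out. In those fits 0 genes passed in all, apart from 1 lower gene without control heart 3, with 658 to 968 at an unadjusted p under 0.05. The macrophage markers summed to between 465 and 687 CPM in control hearts and to 1143, 1240 and 829 CPM in transferred hearts. Transferred heart 3 was thus at 1.46 times the control mean for these markers and at 0.96 times for the chromosome 3 members. Gbp4, at 1.58, 1.75 and 1.25 times its control mean in transferred hearts 1 to 3, had the same order of hearts as the macrophage sum, at 2.02, 2.19 and 1.46 times. The other 8 members were highest in transferred heart 1, unlike the macrophage sum. The 5 neutrophil markers in the table summed to between 8.87 and 12 CPM in control hearts and to 12.2, 259 and 36.7 CPM in transferred hearts, highest in heart 2. With edgeR 0 of these 5 passed, with 5 at an unadjusted p under 0.05, and DESeq2 called 4. Endothelial markers, 9 of 12 in the table, lay between 2474 and 3049 CPM in control hearts and between 2638 and 3059 CPM in transferred hearts. Of these 9, 0 passed with edgeR or DESeq2, with 2 higher and 1 lower at an unadjusted p under 0.05. Vwf, the von Willebrand factor, had a log2 fold change of 1.17 and stood at 177, 381 and 159 CPM in transferred hearts, all above the controls, and the receptor gene Tie1 was at -0.28 (edgeR adjusted p = 0.200 and 0.185). The part of these cell types in the GBP values was not tested.

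Cardiomyocyte markers, 7 in the table, summed to between 73609 and 81083 CPM in control hearts and between 73986 and 85779 CPM in transferred hearts, so the markers of the labelled tissue were abundant in every heart. T cell markers of the mouse, 6 in the table, summed to between 30.0 and 38.3 CPM in control hearts and between 28.5 and 36.0 CPM in transferred hearts, of which Cd28 made up 21.9 to 31.4 CPM in single hearts. Cd2, Cd8a and Lck were below the filter, and Cd8a was at 0 in both groups in some hearts. Their means were 0.0204, 0.0279 and 0.179 CPM in control hearts and 0.197, 0.0627 and 0.34 CPM in transferred hearts. Cd247, a chain of the T cell receptor complex, had the smallest p of the 3 tested, at -1.06 on the log2 scale (edgeR adjusted p = 0.278). The others were Cd4 at 0.35 (edgeR adjusted p = 0.8) and Cd28 at -0.13 (edgeR adjusted p = 0.771). Fibroblast markers, 4 in the table, lay between 1467 and 1946 CPM in control hearts and between 1349 and 1761 CPM in transferred hearts. None of these 3 sums separated the groups.

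**Figure D5:**
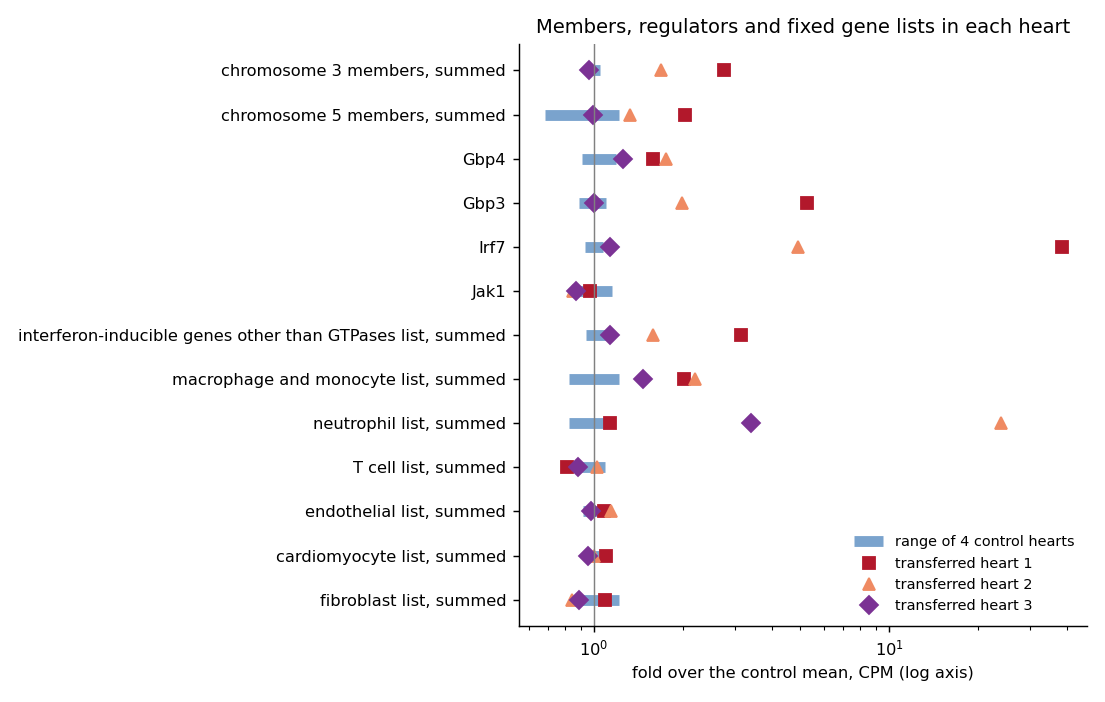
Level in each transferred heart over the control mean, on a log axis, with the range of the 4 control hearts as a blue bar, for summed members, single genes and summed gene lists. Chromosome 3 members and interferon-inducible genes are highest in transferred heart 1, while neutrophil markers reach 24.04 times in transferred heart 2 and macrophage markers are above the control range in all 3.

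The profile over the 7 hearts was then used to look for genes resembling the family. Log2 CPM was centred on the control mean and compared with the mean of the 9 members, which was at 1.24, 0.66 and -0.06 in transferred hearts 1 to 3. Among 6993 genes outside the family with at least 1 CPM on average, the median of the mean absolute difference over the 7 hearts was 0.39. It was 0.12 for Sp100 and 0.13 for each of Tor3a, Gvin1, Gm4070, 9130208D14Rik and Herc6. Tor3a stood at 0.83, 0.37 and -0.12 on this scale in transferred hearts 1 to 3, Gvin1 at 1.41, 0.71 and 0.14, and Herc6 at 1.28, 0.71 and 0.59. Values of Sp100, Gvin1, Gm4070 and 9130208D14Rik had fractional parts in 5 to 7 hearts, and those of Tor3a and Herc6 in 0. Gvin1, Gm4070 and 9130208D14Rik all lie on chromosome 7, with Gm4070 at 1.40, 0.69 and 0.16 in transferred hearts 1 to 3. Whether these genes share reads was not tested, so they may not be separate matches.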

How the data were processed

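Polyadenylated RNA was sequenced from 7 hearts, in paired-end reads of 75 nt per the series design. The authors deposited 1 table of estimated counts per gene, not normalized. The submitters' processing notes list cutadapt 2.5, STAR 2.7.2b, featureCounts 1.6.4, DESeq2 1.22.2 and GRCm38.p6, with no settings. A fractional part was present in 4.63% of values, and how it arose is not stated. The deposited exon lengths, in bases, were used for levels per length. The table held 20343 complete rows and 1 incomplete row, left out, for chromosomes 1 to 7 and part of 8; other chromosomes were not analysed here. Column totals, 16402194 to 25190580, are therefore not library depths. All 20343 gene identifiers and starts matched RefSeq.

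Values were rounded, filtered (filterByExpr), scaled by TMM and tested with edgeR 4.0.16 (quasi-likelihood, robust) in R 4.3.3, over 7667 genes. DESeq2 1.42.0 and limma-voom (limma 3.58.1) were alternatives, beside other scalings, filters, unrounded values, an identifier covariate and left-out hearts. The procedure was checked on simulated counts, with changes larger than those of the members and equal in all transferred hearts. That check does not show how often changes of the members' size would be called. Log2 CPM used a prior count of 2. Groups came from the treatment labels and replicates were numbered in accession order. The members and lists were chosen with earlier results of these data known. All members were named. The rule for other genes allowed those past the threshold, at most the 3 tested genes with the smallest p-values per list, and Irf7 and Jak1, with the 6 genes most like the members. From the marker lists fewer were named than it allowed. Cxcl9, Cxcl10, Cd2, Cd8a and Lck fall outside this rule and were named after their values were seen. One gene that the rule names is not reported here.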

Additional observations from a re-analysis of the deposited data

Results flagged for a closer look

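The 4 control hearts were checked for a value far from the others over 13 results, the 9 members, Gbp2b, Gbp11 and the sum of each cluster. Gbp4 stood apart in control heart 3, at 4.27 on the log2 CPM scale, and lay between 3.88 and 3.94 in the other control hearts, a gap of 0.84 of the whole range. Chance marks about 1 in 20 such groups. Without control heart 3 the log2 fold change of Gbp4 was 0.71, against 0.61 with it. Gbp4 had fractional values in 5 of 7 hearts, and their part in this value was not tested.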

How the results depend on the processing

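All 9 members kept a positive log2 fold change in all 17 alternative settings, 153 comparisons in all, 8 of which passed the threshold that the reported fit did not. The count of members past the threshold, 0 as reported, was 2 with DESeq2 and lay between 0 and 6 when single hearts were left out; it was 0 in the other settings. Against 18 genes called in all, total count scaling gave 35, a filter of only 1 count gave 81 and DESeq2 gave 250. Limma-voom, the identifier covariate and leaving out both prefixed hearts gave 0 each, with 907, 973 and 1054 at an unadjusted p under 0.05, and leaving out single hearts gave 0 to 140. Against 1 gene called on the 4 pathway lists, total count scaling and the wider filter gave 2 each, DESeq2 gave 13, limma-voom, the covariate and leaving out both prefixed hearts gave 0 each, and leaving out single hearts gave 0 to 13. The log2 ratio of summed chromosome 3 members was 0.85, and 0.41 to 1.16 when single hearts were left out; for chromosome 5 it was 0.53, and 0.21 to 0.74, lowest without transferred heart 1 in both. What caused them was not tested. No paired analysis was possible because the labels give the groups a single number in common. Gbp8 had as few as 25.5 counts in a heart, the lowest of the members.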

Other observations

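The tested genes flanking the clusters are given as values, chosen by position. On chromosome 3, Pdlim5 had a log2 fold change of 0.08 ± 0.09 (SE; edgeR adjusted p = 0.782) and Kyat3 of 0.12 ± 0.10 (SE; edgeR adjusted p = 0.660). On chromosome 5, Abcg3 had 0.54 ± 0.56 (SE; edgeR adjusted p = 0.755) and Lrrc8b 0.22 ± 0.16 (SE; edgeR adjusted p = 0.635).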
